A study of Mus musculus with 18 samples.

Results

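The RNA of hindlimb muscle was compared between the oldest and the youngest mice of an ageing series, 3 mice at 28 months against 3 mice at 2 months, with 3 mice at 20 months showing which of the difference was already present. All 9 were female C57BL/6J mice with no transgene and no treatment. Each RNA-seq library came from 1 mouse and was not pooled, and the other 9 of the 18 samples of the series are MBD-seq of muscle and spleen T cells, in which methylated DNA was captured from the pooled DNA of 3 mice per age. The powdered tissue held whole muscle, so fibres, connective tissue, vessels, nerve and blood were read together, and fewer cells of a type cannot be told apart from less RNA per cell. Of 23420 genes in the table, 13178 had a mean normalized count of at least 10 over the 9 libraries and were tested, where a normalized count is the reads of a gene divided by the size factor of its library. All differences below are of log2(normalized count + 1), as the value at 28 months minus that at 2 months with its standard error, and a gene was called higher or lower at an adjusted p under 0.05.

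Limb muscle is a mixture of fast and slow fibres, which carry different forms of the same contractile proteins, each made from its own gene. The nerve sets and maintains these programmes, and muscle fibres that lose their nerve switch on acetylcholine receptor subunits and regulators that are otherwise kept to the junction or to the embryo. Between the fibres lies a collagen-rich matrix that fibroblasts lay down mostly while the animal grows.

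Gene reads ranged from 20203833 to 71115244 per library. The muscle label was checked on fast fibre genes, which summed to 6157400 to 8433700 normalized counts per library. Some libraries stood apart. Markers of bone and cartilage, marrow neutrophils and red blood cells were highest in library 1 at 2 months, whose marrow marker sum was 6867 against 104 to 261 in the other 8. Markers of skin keratinocytes summed to 6448 in library 2 at 28 months against 450 to 1120 elsewhere. In that library Krt5 and Krt14, the basal keratins of skin, read 685 and 407, and at most 7.08 and 0 in the others. Libraries numbered 3 had 2.36% to 2.50% of reads not aligned against 4.39% to 5.39% in the rest, at every age. Their top 10 genes took 29.6% to 32.5% of the gene reads against 43.1% to 48.4%, and their normalized counts summed to 38131600 to 39602600 against 47840600 to 52950500, a difference that rescaling to the same sum removes. The part of these differences in the results below was not tested, and the main counts are given also without library 1 at 2 months and library 2 at 28 months.

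**Figure D1:**
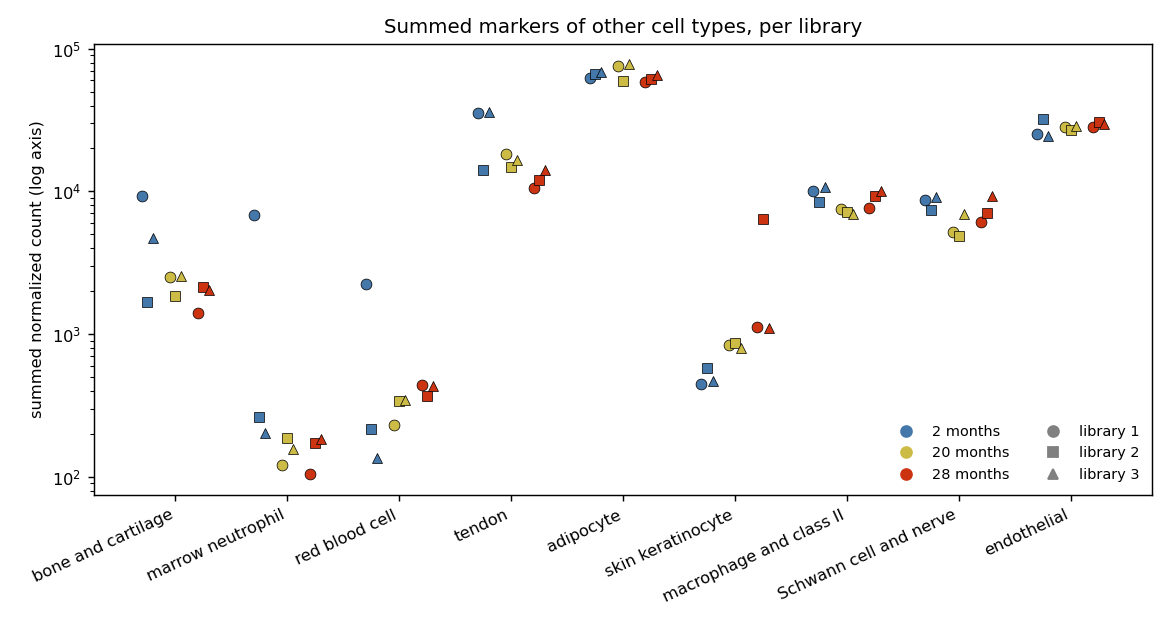
Summed normalized counts (log axis) of marker lists of 9 other cell types in each library, coloured by age and shaped by library number. Library 1 at 2 months is highest for bone and cartilage, marrow and red blood cell markers, and library 2 at 28 months for skin keratinocyte markers.

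Over the full span 1814 genes were called, 992 higher (7.53% of those tested) and 822 lower (6.24%). The median difference over all 13178 genes was -0.01, and that of the called genes was 0.63 for those higher and -0.58 for those lower. Of the genes called higher, 272 rose more than 2-fold and 20 more than 16-fold. Of those called lower, 194 fell more than 2-fold and 5 more than 16-fold. The 3 libraries of one age did not overlap the 3 of the other in 1783 of the called genes. Without overlap by this measure there were 2015 genes higher and 1980 lower among all tested (15.3% and 15.0%). By the limits of the study, a fold over 2 with an unadjusted p under 0.05, 350 genes were higher (2.66%) and 327 lower (2.48%). The study used these limits with DESeq2, and here they were set on the limma fit. DESeq2 on the recovered reads of the genes tested gave 339 and 340. Without library 1 at 2 months and library 2 at 28 months, 612 of the 13178 genes were called higher and 444 lower. With libraries rescaled to the same sum 355 were called higher and 199 lower. List counts given below under these settings are to be read against these counts of all genes. The call counts also moved by over 1.5 times when 1 library was left out, to 521 and 442 without library 1 at 28 months, 559 and 518 without library 3 at 28 months, and 612 and 495 without library 1 at 2 months.

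The largest rise on the log2(value + 1) scale, though not by ratio, was that of Tmem132b, which encodes a transmembrane protein (mm10 chr5:125532418-125792583). Its normalized count was 4.46, 1.76 and 10.1 in the 2-month libraries, 415, 368 and 320 at 20 months, and 490, 388 and 370 at 28 months. The difference was 6.23 ± 0.39 (adjusted p = 1.6e-06), and the step from 20 to 28 months added 0.17. Tecrl, a reductase-like gene best known from heart muscle, behaved in the same way, with 2.23 to 4.33 at 2 months, 72.6 to 192 at 20 months and 108 to 239 at 28 months. Its difference was 5.37 ± 0.44 (adjusted p = 1.1e-05).

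Among the other large rises, that of Krt18 came in more even steps. Krt18, a keratin of simple epithelia, read 4.46, 21.1 and 7.94 at 2 months, 82.2, 167 and 79.5 at 20 months and 700, 405 and 830 at 28 months. It rose by 5.91 ± 0.47 (adjusted p = 9.4e-06), and its step from 20 to 28 months was also called (2.57, adjusted p = 0.035). Its pairing partner Krt8, which lies close to it on chromosome 15, rose by 4.33 ± 0.87 (adjusted p = 0.0064), with 0 to 12.3 at 2 months and 62.1 to 192 at 28 months. These keratins were not highest in the library with skin markers, where Krt18 and Krt8 read 405 and 62.1, the lowest of the 28-month group. Gdf5, a bone morphogenetic protein family ligand, read 0, 0 and 5.78 at 2 months and 55.0, 116 and 132 at 28 months (5.66 ± 0.78, adjusted p = 0.00051). Cxcl10, an interferon-induced chemokine, rose from at most 5.78 to between 81.5 and 165 (5.10 ± 0.69, adjusted p = 0.00045). Without library 1 at 2 months the difference of Krt8 was 3.16 and that of Cxcl10 4.20, and without library 3 at 2 months that of Gdf5 was 6.58.

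For rises from almost no reads a fitted difference depends on the added 1 and sets no bound. Cyp4f14, a cytochrome P450, had 1 read over the 3 libraries at 2 months and 101 at 28 months, a ratio of 136 with an exact 95% interval of 23.9 to 5432 for counting error only. Uts2d, a urotensin-related peptide gene, had 3 and 130 reads, a ratio of 58.4 (19.6 to 287). Spink5, a protease inhibitor of skin, had no read at 2 months and was at least 46.3-fold higher at 28 months against a floor of 3 reads over the group. Of its 28-month counts of 11.4, 127 and 9.44, the highest was in library 2, the one with skin markers, and without it the bound was 8.33-fold. Nkx2-2as, also among the largest rises, is an antisense gene, and the library kit keeps no strand, so its reads cannot be told apart from those of an overlapping gene.

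Slow fibre genes rose together. Of 18 on the list, all tested, 16 were called higher and none lower, against 7.53% of all genes, with a median difference of 1.91. At 20 months their median difference from 2 months was already 2.04. Without library 1 at 2 months and library 2 at 28 months 7 of the 18 were called, with a median of 1.54. Without the 3 libraries numbered 3, 4 were called and the median was 1.78, where 400 of all genes were called higher. DESeq2 called 10 of the 18 higher and edgeR 11, where they called 1146 and 962 of all genes. The list also holds Actn2, Myom1, Myl12a and Myh6, which the study took as coexpressed with Myh7, and not all of these are particular to slow fibres.

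Myh7, the slow myosin heavy chain (mm10 chr14:54970684-54994626), read 2773, 44700 and 8400 at 2 months, with library 2 far above the other 2-month libraries. It read 109828, 62731 and 88434 at 20 months and 107845, 80566 and 112463 at 28 months, so the old groups lay above every 2-month library and overlapped each other. Its difference was 3.29 ± 0.68 (adjusted p = 0.0072), which became 2.36 without library 1 at 2 months and 4.36 without library 2. The slow troponin genes went the same way in the same libraries. Tnni1, slow troponin I, read 455, 6280 and 1128 at 2 months and 11414, 10216 and 11441 at 28 months (2.90 ± 0.64, adjusted p = 0.011). Tnnt1 and Tnnc1, the slow forms of troponin T and C, rose by 2.76 ± 0.61 and 2.74 ± 0.65. The differences of Tnni1, Tnnt1 and Tnnc1 fell to 2.05, 2.02 and 1.98 without library 1 at 2 months and reached 3.94, 3.78 and 3.84 without library 2, and the call of Tnnc1 was lost without any 1 of 3 libraries (adjusted p = 0.053 to 0.057). Without the 2 libraries that stood apart the calls of Tnni1 and Tnnt1 were lost (adjusted p = 0.080 and 0.091), and edgeR and DESeq2 did not call Tnni1, Tnnt1 or Tnnc1. Without the libraries numbered 3 the calls of Myh7, Tnni1 and Tnnt1 were lost (adjusted p = 0.096, 0.12 and 0.12).

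Other members varied less within the 2-month group. Sln, sarcolipin, which binds the calcium pump of the reticulum, read 29.0, 109 and 31.0 at 2 months, 702, 565 and 548 at 20 months and 1871, 1851 and 2414 at 28 months. Its difference of 5.42 ± 0.37 (adjusted p = 3.2e-06) was the largest of the list and became 6.03 without library 2 at 2 months, and 67.7% of it was present at 20 months. Myl12a, a regulatory myosin light chain, rose by 1.16 ± 0.10 (adjusted p = 2.2e-05) and Actn2, the alpha-actinin found in all fibres, by 1.10 ± 0.19 (adjusted p = 0.0027), though the call of Actn2 was lost without the libraries numbered 3 (adjusted p = 0.057). Myom1, an M-band protein, and Myh6, a cardiac myosin heavy chain, rose by 0.34 ± 0.10 and 0.93 ± 0.29, and both calls were lost in most fits with 1 library left out, at adjusted p up to 0.13 and 0.18.

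The slow fibre promoters were read for 2 motifs on both strands, in the 250 bases before the start site that the RefSeq table for GRCm38.p6 gives. The muscle-CAT motif CATTCCT was found in 2 of the 14 called genes with an entry, Myl3 and Myh6, and in 4.51% of all promoters of the table. The Myh6 window, chr14:54966608-54966857, lies inside the gene as placed at mm10 chr14:54941921-54968017. The 9-base motif TATTTATAG of the MEF2 family was in none of the 14 and in 0.408% of all. Myl3, the slow ventricular-type essential light chain, is shown as the member with both a large rise and a motif, which is in capitals and begins 149 bases before the start (chr9:110763428-110763677, plus strand).
Myl3: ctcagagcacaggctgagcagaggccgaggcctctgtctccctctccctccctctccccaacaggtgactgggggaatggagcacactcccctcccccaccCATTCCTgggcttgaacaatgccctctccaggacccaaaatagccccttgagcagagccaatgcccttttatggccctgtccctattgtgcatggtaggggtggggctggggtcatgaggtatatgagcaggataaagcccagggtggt
Myl3 read 1529, 12460 and 3871 at 2 months and 20557, 18173 and 20368 at 28 months, with 25975, 14119 and 21113 at 20 months. Its difference was 2.23 ± 0.52 (adjusted p = 0.013), which fell to 1.50 without library 1 at 2 months and rose to 3.02 without library 2. The adjusted p was 0.051 without library 1 at 28 months and 0.077 without the 2 libraries that stood apart. It was 0.13 without the libraries numbered 3.

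Fast fibre genes were lower in part. Of 17 tested, 7 were called lower and 1 higher, with a median difference of -0.35, against 6.24% and 7.53% of all genes. Leaving out the 2 libraries that stood apart gave 4 lower and none higher, rescaling to the same sum gave 2 lower and none higher, and DESeq2 gave 11 and 1. Over all 13178 genes these settings gave 444 lower and 612 higher, 199 and 355, and 979 and 1146. Pvalb, parvalbumin, the calcium buffer of the fastest fibres, read 313171, 240007 and 290666 at 2 months and 139824, 149884 and 123348 at 28 months. Casq1, the fast form of calsequestrin, fell about as far, by 1.01 ± 0.12 (adjusted p = 0.00019) beside 1.03 ± 0.14 for Pvalb (adjusted p = 0.00056). Myh2, the heavy chain of the intermediate 2A fibres, was the member called higher (0.70 ± 0.20, adjusted p = 0.039), a call lost without any 1 of 5 libraries. Myh4, the heavy chain of the fast 2B fibres, did not pass the test (-0.29 ± 0.28, adjusted p = 0.54).

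Set per kb of the longest GENCODE transcript, the myosin heavy chains can be compared as shares of their sum. Myh4 made up 90.8%, 77.6% and 90.4% of it at 2 months and 83.6%, 73.6% and 80.0% at 28 months, so the ages overlapped. Myh7 made up 0.695% ± 0.886 (SD, n = 3) at 2 months, 2.94% ± 0.828 at 20 months and 3.94% ± 0.468 at 28 months. Myh2 took 3.26% ± 1.18, 5.23% ± 0.983 and 5.68% ± 0.573 at the same ages. Myh3, the embryonic chain, stayed a trace at 0.0975% ± 0.00741 at 28 months, against 0.0152% ± 0.000832 at 2 months.

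**Figure D2:**
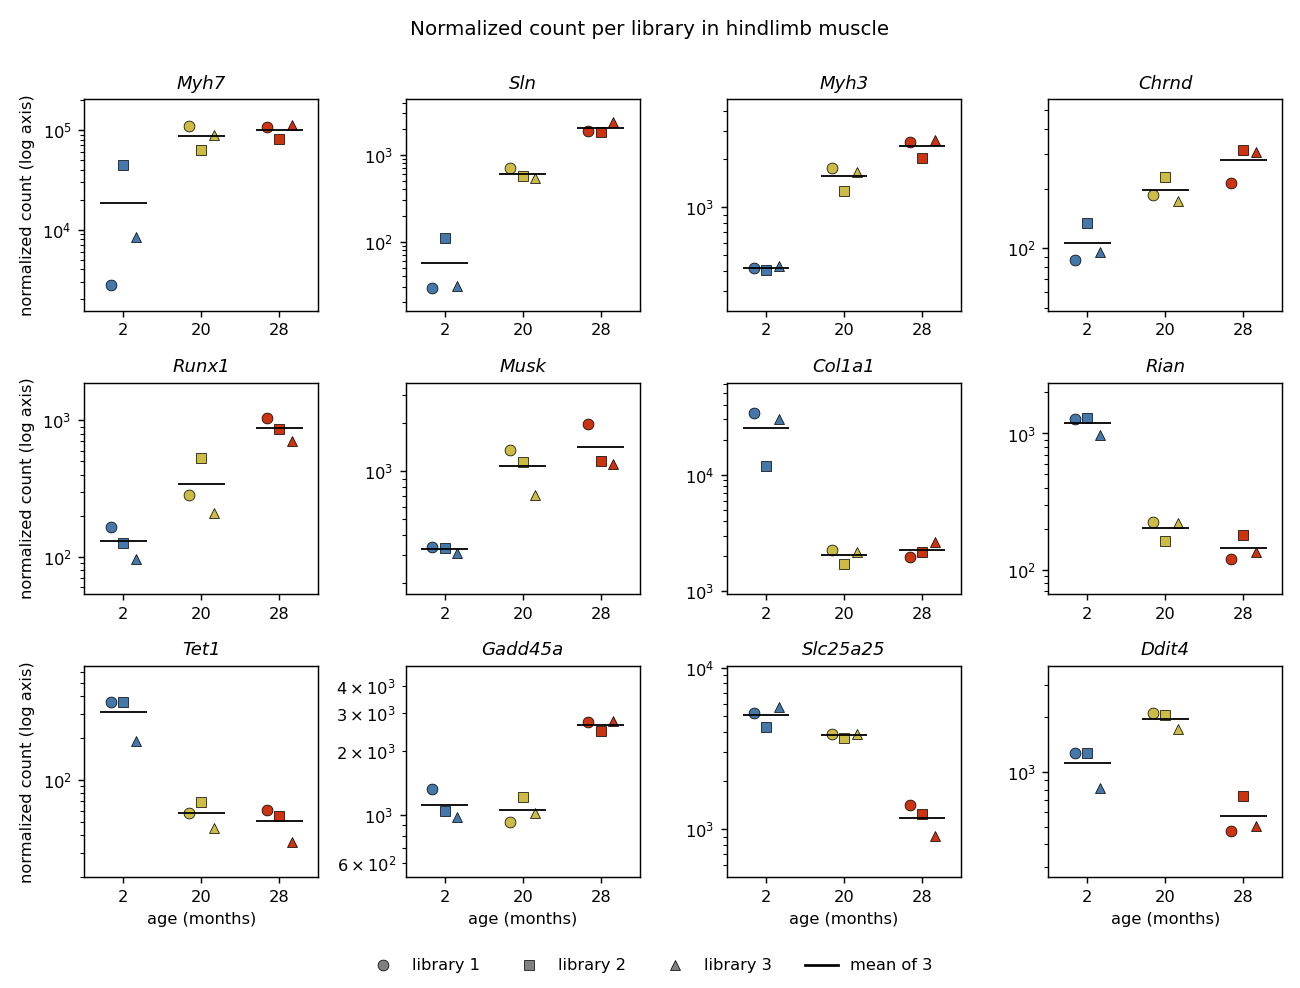
Normalized counts (log axis) of 12 genes in each of the 9 libraries by age in months, with a bar at the mean of 3. The first 9 genes had moved at 20 months, whereas Gadd45a and Slc25a25 moved at 28 months and Ddit4 rose at 20 and fell below its 2-month level at 28 months.

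Genes of denervation and the neuromuscular junction rose in number second to those of slow fibres. Of 22 tested, 15 were called higher and 1 lower, against 7.53% higher and 6.24% lower over all genes, with a median difference of 0.92, which was 0.41 at 20 months. Without the 2 libraries that stood apart 11 were called higher and none lower, with a median of 1.03. Of the 16 called members 5 had reached their 28-month level at 20 months, 9 had reached it in part and 2 were late, by the limits given further on.

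Runx1, a transcription factor of denervated fibres, read 165, 127 and 96.0 at 2 months, 284, 530 and 209 at 20 months and 1046, 863 and 706 at 28 months (2.76 ± 0.29, adjusted p = 9.5e-05). Myh3, the embryonic myosin, read 407 to 427, 1270 to 1756 and 2040 to 2614 at the 3 ages and rose by 2.51 ± 0.13 (adjusted p = 8.5e-07). Musk, the receptor kinase that gathers acetylcholine receptors, rose from between 308 and 337 to between 1110 and 1979 (2.07 ± 0.23, adjusted p = 0.00015).

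The subunits of the acetylcholine receptor did not move alike. Chrna1 and Chrnd, its alpha and delta subunits, rose by 1.10 ± 0.14 and 1.39 ± 0.22 (adjusted p = 0.00026 and 0.0012), and the beta subunit Chrnb1 by 0.92 ± 0.11 (adjusted p = 0.00026). Chrng, the fetal gamma subunit, read 0, 8.81 and 2.89 at 2 months and 20.9, 55.2 and 18.9 at 28 months (3.11 ± 0.86, adjusted p = 0.030), a call lost without any 1 of 5 libraries, at 2.23 without library 1 at 2 months. Chrne, the adult epsilon subunit that takes its place in grown muscle, read 299, 365 and 407 at 2 months and 351, 377 and 389 at 28 months, with a difference of 0.07 ± 0.14 (adjusted p = 0.78). Ache, acetylcholinesterase, was the member called lower, at -0.47 ± 0.11 (adjusted p = 0.013), a call lost after rescaling (adjusted p = 0.44).

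In the same 250 bases the E-box CAGCTG, the site of MyoD family factors, was found in 3 of 12 called members with an entry, Chrng, Chrna1 and Musk, and in 13.0% of all promoters. This motif was chosen after the values were seen. The 3 sequences are shown because they belong to receptor subunits and their organizer, with each E-box in capitals (Chrng chr1:87205561-87205810, plus strand, Chrna1 chr2:73580339-73580588, minus strand, and Musk chr4:58285712-58285961, plus strand).
Chrng: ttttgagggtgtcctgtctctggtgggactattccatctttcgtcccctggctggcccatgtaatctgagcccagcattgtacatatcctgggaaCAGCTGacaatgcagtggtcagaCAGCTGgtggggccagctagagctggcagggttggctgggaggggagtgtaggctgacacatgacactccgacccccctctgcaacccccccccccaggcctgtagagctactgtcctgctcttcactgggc
Chrna1: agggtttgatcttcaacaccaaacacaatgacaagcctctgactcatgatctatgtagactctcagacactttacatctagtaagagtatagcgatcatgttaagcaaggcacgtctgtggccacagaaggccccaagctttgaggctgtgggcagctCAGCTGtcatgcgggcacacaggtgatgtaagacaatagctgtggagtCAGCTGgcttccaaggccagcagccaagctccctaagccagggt
Musk: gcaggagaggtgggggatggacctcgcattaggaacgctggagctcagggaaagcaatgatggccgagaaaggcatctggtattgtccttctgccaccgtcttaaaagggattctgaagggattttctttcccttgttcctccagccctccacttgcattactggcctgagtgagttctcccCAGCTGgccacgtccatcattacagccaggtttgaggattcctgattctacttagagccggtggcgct
Chrng and Chrna1 held 2 E-boxes each, at 132 and 155 and at 44 and 92 bases before the start, and Musk held 1 at 68 bases. The Musk start of the RefSeq table lies inside the gene as placed at mm10 chr4:58285729-58377848. Its E-box is thus after that gene start and not before it.

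The factors that bind such sites differed in direction. Myod1 read 999, 1163 and 1119 at 2 months and 695, 668 and 591 at 28 months, a fall of 0.75 ± 0.12 (adjusted p = 0.0012) that was complete at 20 months. Myf6, the factor of mature fibres, rose by 0.71 ± 0.08 (adjusted p = 0.00015). Myog, myogenin, rose late, with 218, 190 and 308 at 2 months, 166, 262 and 172 at 20 months and 583, 525 and 342 at 28 months (1.01 ± 0.24, adjusted p = 0.016). Its call was lost without library 1 or library 2 at 28 months or library 1 at 2 months, at adjusted p of 0.058 to 0.078. Of the 17 satellite cell and myogenic genes tested 5 were higher and 3 lower, against 7.53% higher and 6.24% lower over all genes, with a median of 0.01. With libraries rescaled to the same sum 2 were higher and none lower, and the call of Myod1 was lost (adjusted p = 0.069).

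Nearly all collagen genes fell. All 19 on the list were tested, 17 were called lower and none higher, where 6.24% of all genes were lower, and the median difference was -1.13. Without the 2 libraries that stood apart 14 were lower, with a median of -1.12. Col1a1, the main chain of type I collagen (mm10 chr11:94936224-94953042), read 34207, 11798 and 29946 at 2 months, 2258, 1711 and 2170 at 20 months and 1979, 2190 and 2657 at 28 months. That was a fall of 3.34 ± 0.30 (adjusted p = 2.2e-05), and each old library lay below each young one by over 4-fold. Col1a2, its partner chain, fell by 3.08 ± 0.29, Col3a1, type III collagen, by 2.17 ± 0.16 and Col6a1, of the fibre surface, by 1.20 ± 0.16 (adjusted p = 3.9e-05, 4.4e-06 and 0.00038). Col3a1 varied least among the young, with 10899, 10941 and 15596 against 2209, 2830 and 3237 at 28 months. The members not called were Col14a1 and Col8a1.

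Of 34 genes of collagen processing and matrix 17 were called lower and none higher, where 7.53% of all genes were higher and 6.24% lower, with a median of -0.53. Leaving out the 2 libraries that stood apart gave 9 lower and rescaling 10. Sparc, which binds collagen, fell by 1.77 ± 0.17 (adjusted p = 5.4e-05) and Loxl2, a cross-linking enzyme, by 1.29 ± 0.17 (adjusted p = 0.0004). Dcn, decorin, an abundant product of fibroblasts, read 16293, 11248 and 19989 at 2 months and 12437, 12022 and 16890 at 28 months, a difference of -0.18 ± 0.18 (adjusted p = 0.55).

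Tendon genes were also mostly lower, and their level differed between young libraries. Of 10 tested 7 were lower, against 6.24% of all genes, with a median of -1.22, and 4 without the 2 libraries that stood apart. Collagens had a median of -1.37 at 20 against 2 months and a median step of 0.22 from 20 to 28 months. Tendon genes had medians of -0.76 and -0.45 over the same steps. Their summed count was 35275 and 36221 in libraries 1 and 3 at 2 months but 14154 in library 2, against 10619 to 14014 at 28 months. Kera, keratocan, a matrix proteoglycan, read 1088, 409 and 1395 at 2 months and 43.6, 40.1 and 126 at 28 months (-3.79 ± 0.46, adjusted p = 0.0002). Tnmd, tenomodulin, fell by 1.99 ± 0.32 (adjusted p = 0.0015). Type I collagen was likewise lowest in library 2 of the young group, and the part of attached tendon in its fall was not tested. For cartilage and marrow the young signal was mostly in 1 library. Col2a1, cartilage collagen, read 825, 31.7 and 97.5 at 2 months and at most 9.49 at 28 months, and its call was lost without library 1 at 2 months (-2.78, adjusted p = 0.064) or library 2 at 28 months (adjusted p = 0.059). Mpo, the myeloperoxidase of marrow neutrophils, had no read at 28 months, at least 40.1-fold lower against a floor of 3 reads over the group. Its counts of 314, 26.4 and 4.33 at 2 months were led by library 1, without which the bound was 6.38-fold. The call of Mpo was lost without library 1 at 2 months (adjusted p = 0.21) and also without library 2 at 2 months or library 1 or 3 at 28 months (adjusted p = 0.078 to 0.093).

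Of the markers of other cell types, 4 of 18 for adipocytes and 4 of 15 for bone and cartilage were lower, while 2 of 17 endothelial genes were higher and 1 lower, and 1 of 12 keratinocyte genes was higher, where 7.53% of all genes were higher and 6.24% lower. No Schwann cell gene of 15 and no red blood cell gene of 6 was called by limma, with 3 and 1 at an unadjusted p under 0.05, and DESeq2 called 1 Schwann cell gene lower. With the 2 libraries that stood apart left out 1 adipocyte gene and none of the bone and cartilage genes was lower, and 2 red blood cell genes were higher. Large falls also lay outside these lists. B230312C02Rik, a transcript of no assigned function, read 502, 386 and 967 at 2 months and 26.6, 29.0 and 37.7 at 28 months (-4.17 ± 0.30, adjusted p = 4.4e-06). Cacna2d4, a calcium channel subunit, differed by -3.99 ± 0.55, Rmi2, a genome stability factor, by -3.45 ± 0.48 and Kl, klotho, a co-receptor of FGF23, by -3.85 ± 0.78 (adjusted p = 0.00051, 0.00056 and 0.0064). Kl was low even when young, with 37.9, 28.2 and 46.2 at 2 months and 3.80, 2.76 and 0 at 28 months, and its difference was -3.15 without library 3 at 28 months. Its call was lost without the libraries numbered 3 (adjusted p = 0.089).

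Imprinted growth genes, which are expressed from 1 parental copy and are mostly active before adulthood, were mostly lower, with 12 of 17 called lower and 2 higher, against 7.53% higher and 6.24% lower over all genes, at a median of -0.76. Without the 2 libraries that stood apart 7 were lower and 2 higher, and with libraries rescaled to the same sum 3 were lower and 1 higher. The non-coding Rian and Meg3, neighbours on chromosome 12 (mm10 chr12:109603945-109661716 and chr12:109540996-109571729), both fell. Rian read 1277, 1308 and 972 at 2 months, 224, 164 and 218 at 20 months and 120, 181 and 136 at 28 months (-3.03 ± 0.19, adjusted p = 1.6e-06). Meg3 fell by 2.41 ± 0.39 (adjusted p = 0.0016), and Peg3, a zinc finger gene, by 1.42 ± 0.28 (adjusted p = 0.0054). Igf2, the fetal growth factor, fell by 0.58 ± 0.11 (adjusted p = 0.004), whereas H19, its neighbour, differed by -0.05 ± 0.19 (adjusted p = 0.90). The members called higher were Peg10, a gene derived from a retroelement, with 118, 79.3 and 112 at 2 months and 315, 238 and 287 at 28 months (1.44 ± 0.20, adjusted p = 0.00059), and Igf2r, the receptor that clears Igf2 (0.38 ± 0.09, adjusted p = 0.016). After rescaling the calls of Igf2 and Igf2r were lost (adjusted p = 0.23 and 0.31). The call of Igf2r was also lost without library 1 or 3 at 28 months (adjusted p = 0.079 and 0.059).

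Among 29 genes of DNA methylation and retroelement control 3 were called lower and 1 higher, near the all-gene shares of 6.24% and 7.53%, with a median of 0.02, and without the 2 libraries that stood apart 2 and 1. Tet1, which oxidizes methylated cytosine (mm10 chr10:62804570-62887469), read 363, 367 and 191 at 2 months, 57.9, 69.2 and 45.2 at 20 months and 60.7, 55.2 and 35.9 at 28 months. That was a fall of 2.55 ± 0.30 (adjusted p = 0.00019), and the old groups overlapped each other but not the young one. Tet3, of the same family, fell by 0.89 ± 0.17 (adjusted p = 0.0048) and Dnmt3a, a methyltransferase, by 0.78 ± 0.12 (adjusted p = 0.0014). The call of Tet3 was lost without the 2 libraries that stood apart (adjusted p = 0.058).

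DNA captured around the start sites of the called genes was read in the muscle MBD-seq pools, 1 per age, so no test was made. For the mean normalized count of the 500-bp bins within 1 kb of the start, the median difference of log2(count + 1) at 28 against 2 months was 0.29 for 934 genes called higher, 0.29 for 771 called lower and 0.27 for all 12323 genes with a position. The middle 50% of the genes called higher lay between -0.24 and 0.87. Over gene bodies the medians had the other sign, -0.26, -0.33 and -0.29.

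Of 35 interferon-stimulated genes 4 were called higher at 28 months and none lower, against 7.53% higher and 6.24% lower over all genes, with a median of 0.08. With libraries rescaled to the same sum 1 was higher, and without the 2 libraries that stood apart 2 were higher. At 20 months the same list had a median of -0.46 against 2 months, with 14 called lower (7.13% of all genes) and none higher (9.42%). The 20- and 28-month comparisons share the 2-month libraries. Of 18 class I antigen presentation genes 2 were higher and none lower, with a median of 0.03, and both calls were lost after rescaling. B2m, the constant chain of class I molecules, rose by 0.40 ± 0.08 (adjusted p = 0.0075, lost after rescaling at 0.33) and the GTPase Igtp by 0.86 ± 0.13 (adjusted p = 0.00092). Cd274, the checkpoint ligand PD-L1, read 111, 137 and 139 at 2 months, 157, 135 and 98.1 at 20 months and 338, 384 and 211 at 28 months (1.22 ± 0.24, adjusted p = 0.0057), a call lost without the 2 libraries that stood apart (adjusted p = 0.085).

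The interferon-response motif GAAANNGAA, read on both strands, was in 2 of the 3 called interferon genes with an entry and in 7.13% of all promoters. Both genes are GTPases of the same family on chromosome 11, and their sequences before the start are shown with the motif in capitals, which in Irgm1 is a run of 2 overlapping matches (Igtp chr11:58199306-58199555, plus strand, and Irgm1 chr11:48871421-48871670, minus strand).
Igtp: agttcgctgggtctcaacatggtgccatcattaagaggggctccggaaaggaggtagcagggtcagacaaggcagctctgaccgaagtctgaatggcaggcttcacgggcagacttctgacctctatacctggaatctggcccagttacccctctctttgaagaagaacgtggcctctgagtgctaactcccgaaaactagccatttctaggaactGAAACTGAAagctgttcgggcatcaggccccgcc
Irgm1: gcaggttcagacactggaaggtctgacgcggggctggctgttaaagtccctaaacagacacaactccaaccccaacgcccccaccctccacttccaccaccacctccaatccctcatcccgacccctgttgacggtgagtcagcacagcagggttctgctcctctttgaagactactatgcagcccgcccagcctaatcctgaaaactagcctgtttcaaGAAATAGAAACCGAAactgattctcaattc
The motif began 34 bases before the start of Igtp and 30 bases before that of Irgm1. Irgm1 read 510, 552 and 611 at 2 months and 799, 753 and 759 at 28 months (0.47 ± 0.12, adjusted p = 0.023), a call lost without any 1 of 3 libraries, at adjusted p of 0.060 to 0.089. Of the markers of immune cells, 1 of 25 macrophage genes and 1 of 3 T cell genes were lower and 1 of 8 B cell genes was higher, where 6.24% of all genes were lower and 7.53% higher. Macrophage markers summed to 8376 to 10726 at 2 months and 7625 to 10143 at 28 months.

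Stress and metabolic lists were mixed. Of 28 heat shock and unfolded protein genes 9 were higher and 1 lower, with a median of 0.11. They included the small heat shock proteins Cryab, which rose by 1.02 ± 0.12 (adjusted p = 0.00018), and Hspb7, which rose by 1.56 ± 0.20 (adjusted p = 0.00033), while Atf4 of the stress response fell by 0.55 ± 0.08 (adjusted p = 0.0005, lost after rescaling at 0.165). Leaving out the 2 libraries that stood apart gave 5 higher and 1 lower. Of 27 antioxidant genes 4 were higher and 1 lower, led by Srxn1, sulfiredoxin, with 834, 737 and 810 at 2 months and 1607, 1679 and 1565 at 28 months (1.03 ± 0.08, adjusted p = 1.1e-05). Of 25 immediate early genes 7 were higher and 2 lower, led by Fos (1.23 ± 0.14, adjusted p = 0.00015). Of 29 genes of glycolysis and glycogen 9 were lower and 4 higher, with a median of -0.17. Over all genes 7.53% were higher and 6.24% lower before rescaling. With libraries rescaled to the same sum 355 of the 13178 genes were higher and 199 lower. Heat shock genes then had 4 higher and 0 lower calls, and antioxidant genes 2 and 0. Immediate early genes had 6 and 0 and glycolysis genes 1 and 0. None of the 39 genes of respiratory complexes I to V was called by limma or by edgeR and DESeq2 on the recovered reads, and 4 of them had an unadjusted p under 0.05 by limma. Their differences ranged from -0.34 to 0.07. Without library 2 at 28 months 8 of the 39 were called lower, where 839 of all 13178 genes were.

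Of 25 atrophy genes 9 were higher and 4 lower, against 7.53% and 6.24% of all genes, with a median of 0.21, and without the 2 libraries that stood apart 9 and 3, after rescaling 5 and 2. Foxo1, a transcription factor of the fasting and atrophy response, rose by 0.77 ± 0.11 (adjusted p = 0.00048). Fbxo32 and Trim63, the ubiquitin ligases that mark atrophy, differed by 0.69 ± 0.25 and 0.33 ± 0.16 and did not pass the test (adjusted p = 0.094 and 0.20). Of 15 genes of growth arrest and senescence 1 was higher and 2 lower, near the all-gene shares. Cdkn1a, the p21 inhibitor, rose by 0.69 ± 0.18 (adjusted p = 0.026), a call lost without library 1 or library 2 at 28 months (adjusted p = 0.085 and 0.088), and Cdkn1b, the p27 inhibitor, fell by 1.00 ± 0.10 (adjusted p = 5.7e-05).

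**Figure D3:**
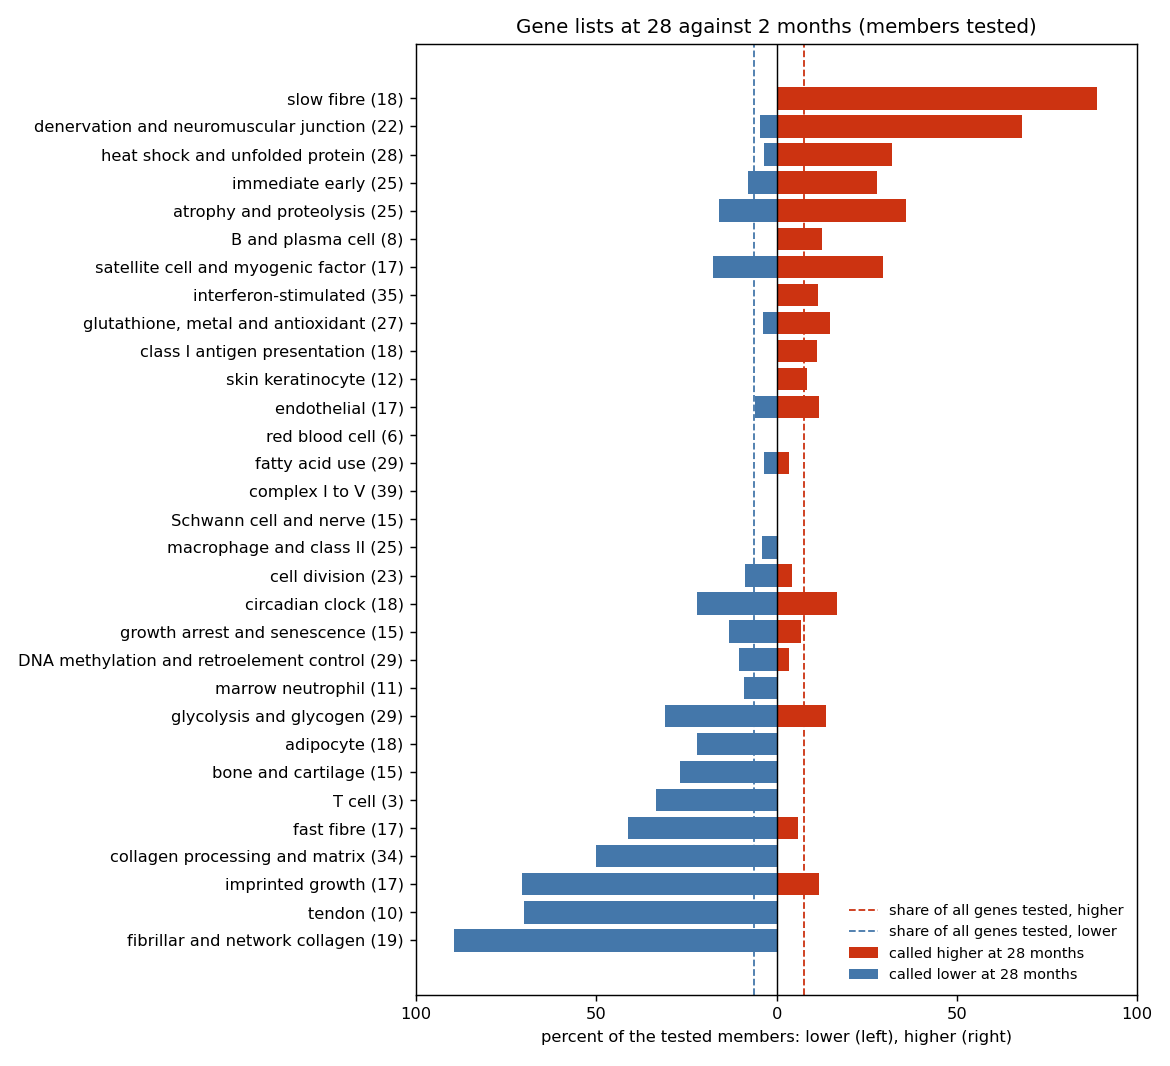
Percent of the tested members of each of 31 gene lists called higher (right) or lower (left) at 28 against 2 months, with the number tested in brackets. Dashed lines mark the shares of all genes tested, 7.53% higher and 6.24% lower. Slow fibre and denervation genes stand at the higher end and collagen, tendon and imprinted genes at the lower.

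The share of each difference that was present at 20 months is the log2 difference at 20 months over that at 28 months, both against the same 2-month libraries. A gene was taken as having reached its level at a share of 75% or more, as late at under 25% and as partly there in between. No error was set on a share, and the shared libraries enter both differences. The counts of these classes are thus a description with no test. Of the 992 genes higher, 703 had reached it (70.9%), 246 were partly there and 43 were late (4.33%), with a median of 92.0%. Of the 822 lower, 497 had reached it (60.5%), 277 were partly there and 48 were late (5.84%), with a median of 82.7%. Without library 1 at 2 months and library 2 at 28 months, 61.4% of the genes then called higher and 53.4% of those called lower had reached it. The 20-month level went past the 28-month one, at over 125%, in 138 genes higher and 104 lower. The same direction was called at 20 against 2 months for 723 of the higher and 519 of the lower genes. In all, 1242 genes were higher (9.42%) and 939 lower (7.13%) at 20 months, more than at 28.

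**Figure D4:**
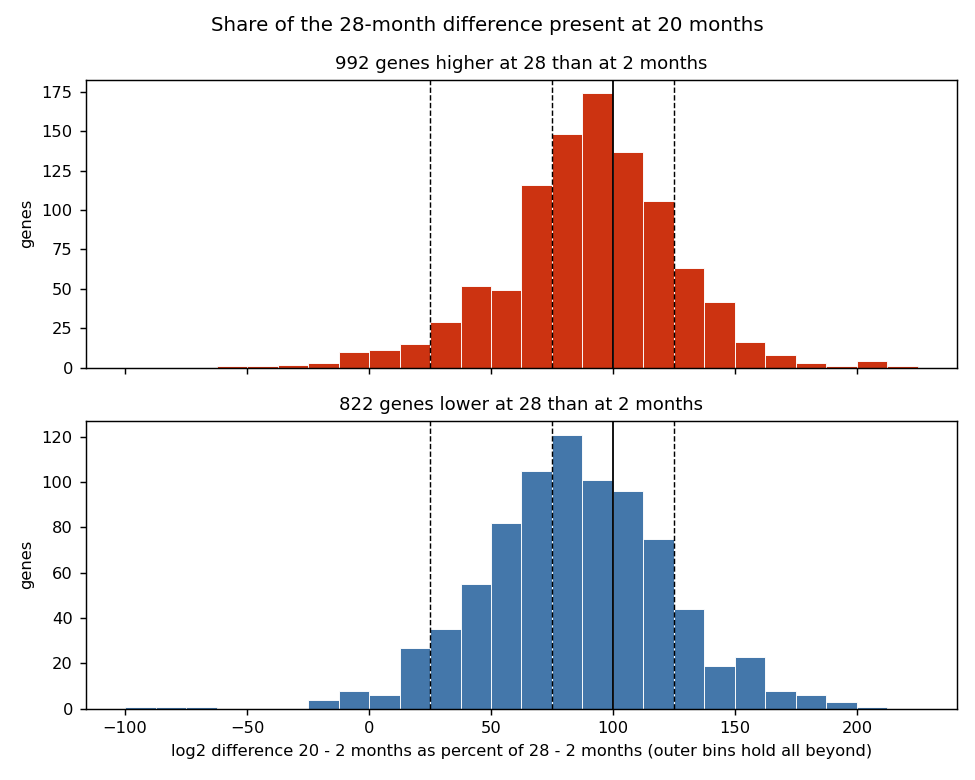
Number of genes called higher (top) and lower (bottom) at 28 against 2 months by the percent of their log2 difference present at 20 months. The solid line marks 100% and the dashed lines 25%, 75% and 125%, and the medians are 92.0% and 82.7%. Values beyond either end of the axis are drawn in the last bin.

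Some genes called over the full span lay farther from the young level at 20 months than at 28. Actc1, the cardiac actin of growing muscle, read 35874, 11648 and 59450 at 2 months, 1806, 1625 and 1944 at 20 months and 4533, 5045 and 5315 at 28 months. It fell by 2.56 ± 0.40 (adjusted p = 0.0012), 157% of which was there at 20 months, and by 3.22 without library 2 at 2 months. Mss51, a muscle gene tied to mitochondrial metabolism, read 768 to 2516, 8718 to 10659 and 3348 to 6993 at the 3 ages and rose by 1.99 ± 0.34 (adjusted p = 0.0025), a call lost without the libraries numbered 3 (adjusted p = 0.056). Cish, a feedback inhibitor of cytokine signalling, fell by 2.44 ± 0.34 (adjusted p = 0.00053), with 126% there at 20 months.

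The step from 20 to 28 months called 28 genes higher (0.212%) and 22 lower (0.167%), and it shares the 28-month libraries with the full span. Of these, 17 and 10 were also called in that direction over the full span, and 12 and 9 of them were late. Of the 28 genes 8 had been called lower at 20 months, among them Gbp4, Gbp7 and Irf7 of the interferon response, and 13 of the 22 had been called higher. Of these 21 genes 12 were on the other side of their 2-month level at 28 months by the sign of the fitted difference, and 9 were on the same side. The steps to and from 20 months share the 20-month libraries with opposite sign, so these counts are a description with no test. The counts of this step moved with single libraries. With 1 library left out it called from 8 genes higher and 6 lower (without library 1 at 20 months) to 50 and 38 (without library 2 at 2 months), and without library 1 at 2 months and library 2 at 28 months 6 and 10. It called 9 and 9 without library 3 at 20 months, and 10 and 15, 9 and 19, and 12 and 11 without libraries 1, 2 and 3 at 28 months. DESeq2 on the recovered reads called 123 and 105 and a fit with a replicate block 64 and 74, while libraries rescaled to the same sum gave 15 and 9 and leaving out the libraries numbered 3 gave 3 and 8. Slc25a25, a mitochondrial carrier of ATP and magnesium (mm10 chr2:32414487-32451470), was the clearest late fall. It read 5265, 4323 and 5682 at 2 months, 3878, 3665 and 3892 at 20 months and 1402, 1233 and 906 at 28 months (-2.12 ± 0.14, adjusted p = 2.8e-06), with 19.2% there at 20 months. Gadd45a, a growth arrest gene also switched on by denervation (mm10 chr6:67035096-67037407), was the clearest late rise. It read 1320, 1045 and 978, then 925, 1210 and 1023, then 2710, 2471 and 2748 at the 3 ages (1.26 ± 0.12, adjusted p = 6.1e-05), and its last step was 1.33 (adjusted p = 0.00032). Prima1, the membrane anchor of acetylcholinesterase, fell late by 2.41 ± 0.28 (adjusted p = 0.00018), from 113 to 174 at 2 months and 74.2 to 129 at 20 months to between 20.8 and 30.4. Hpgd, which breaks down prostaglandins, rose late by 1.55 ± 0.32 (adjusted p = 0.0067), a call lost without the libraries numbered 3 (adjusted p = 0.067).

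One gene was called in opposite directions at the old ages, Ddit4, an inhibitor of mTORC1 signalling that responds to stress. It read 1266, 1270 and 811 at 2 months, 2120, 2058 and 1715 at 20 months and 474, 735 and 504 at 28 months, 0.84 above the young level at 20 months (adjusted p = 0.010) and 0.96 ± 0.19 below it at 28 months (adjusted p = 0.0055). Other genes had left the young level at 20 months and were back near it at 28. Per1, a clock gene named here after its values were seen, read 1393 to 1507 at 2 months, 2660 to 2946 at 20 months and 1314 to 1574 at 28 months, and Ucp3, an uncoupling protein of muscle mitochondria, also so chosen, read 1221 to 1480, 3013 to 6338 and 1178 to 2112. Of the 18 clock genes tested 3 were higher and 4 lower at 28 months, against 7.53% and 6.24% of all genes, led by Cry2, a repressor of the clock (0.92 ± 0.09, adjusted p = 8.0e-05). After rescaling 1 clock gene was higher and none lower. The time of day of sampling is not given in the sources used here, and its part in these values was not tested. In all, 519 genes called higher and 420 called lower at 20 months were not so called at 28 months.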

How the data were processed

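RNA-seq libraries were made from poly-A RNA with a kit that keeps no strand, 1 library per mouse, and 9 muscle libraries were used. Per the study methods the authors trimmed reads with Trim Galore, aligned them to mm10 with Hisat2 (the submitters' processing notes list TopHat), counted reads per refSeq gene with htseq-count and divided them by DESeq2 size factors. The deposited values are thus a normalized signal. They were whole multiples of 1 step per library (100% of values, tolerance 0.001), so whole reads were recovered, and on these edgeR 4.0.16 called 962 genes higher and 813 lower, and DESeq2 1.42.0 called 1146 and 979. The deposited MBD-seq signal is reads per 500-bp bin on the same kind of scale, with 1 pool per age. The 5 rows of the RNA table that name no gene were left out, genes taking 52.3% to 62.1% of all reads. No column was left unused in that table. Reads of close paralogs (Hspa1a and Hspa1b, the myosin heavy chains) and of overlapping genes may be split by the counting.

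Genes with a mean of at least 10 were fitted as log2(value + 1) in limma 3.58.1 (R 4.3.3) with age as the only term over all 9 libraries and Benjamini-Hochberg adjustment over the 13178 genes. A fold on this scale understates the change of low genes. Genes named are the 12 largest rises and falls without overlap, up to 5 members per list and those that define it, genes the study names, and the largest reached, late and beyond differences, of which the text gives a selection. The comparison, gene lists and members were chosen with earlier results of these data known. Libraries are separate mice. An exact permutation test of 3 against 3 cannot go below 0.1 and was not used. Alternatives were scaling, filter, pseudocount, tool, replicate block and libraries left out. Intervals cover counting error only. Some results are not reported here.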

Additional observations from a re-analysis of the deposited data

How the results depend on the processing

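No gene called over the full span was called in the opposite direction under any alternative. The 992 higher and 822 lower calls became 355 and 199 with libraries rescaled to the same sum, 400 and 312 without the libraries numbered 3, and 612 and 444 without library 1 at 2 months and library 2 at 28 months, an alternative chosen after seeing the data. With 1 library left out they ranged from 521 to 1007 and from 442 to 839. The share of lower genes that were late was 3.52% after rescaling and 3.64% to 8.34% with 1 library left out. Genes over 2-fold were 232 and 172 at a mean of at least 50, and 649 lower with no filter. With a replicate block 1368 genes were called higher and 1161 lower. The numbers were not taken as pairs in the main fit. Deviations of same-numbered libraries correlated at -0.040 to 0.161, and only those numbered 3 were over 0.1 at every pair of ages. Libraries numbered 3 also stood apart in reads not aligned at every age, and whether they share a step of preparation was not tested. Median promoter MBD-seq differences for genes called higher, called lower and all were 0.71, 0.77 and 0.86 in the start bin, 0.68, 0.67 and 0.66 after rescaling, and -0.26, -0.33 and -0.29 over gene bodies. The cause was not tested.

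Some differences that did not pass the test changed sign. With 1 library left out, Chrne ranged from -0.0510 to 0.172, Col14a1 from -0.393 to 0.0343, Dcn from -0.406 to 0.00853, H19 from -0.350 to 0.137, Per1 from -0.0535 to 0.0771 and Ucp3 from -0.115 to 0.305. Without library 1 at 2 months and library 2 at 28 months Chrne was -0.0608, Per1 -0.0267 and Ucp3 -0.117, H19 was 0.0905 without the libraries numbered 3, and Per1 was -0.00723 after quantile normalization.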
